A study of Mus musculus with 9 samples.

Results

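Small RNA libraries were compared from the fat beneath the skin (subcutaneous adipose tissue) of 9 mice, in which the 6 libraries labelled Hete KO or Homo KO formed 1 group and were set against the 3 labelled WT. The 9 libraries are all those of the series. The labels describe knockouts of Ago1 in endothelial cells, the cells that line blood vessels, and WT littermates. Hete KO (3 mice) and Homo KO (3 mice) are separate genotypes whose names the labels do not spell out. They are read here as heterozygous and homozygous, in which case Hete KO mice would keep a working copy of Ago1, and how much Ago1 either genotype retained is not known. Neither the Cre driver nor the sex or strain of the animals is given in the sources used here. Every mouse was 24 weeks old at sampling and was kept from week 8 for 16 weeks on a diet rich in fat and sucrose, WT mice included, so there is no group on an ordinary diet. Each library came from a different mouse. The files list mature miRNAs and no mRNA, so that loss of Ago1 itself could not be checked, and endothelial cells were not separated from the other cells of the tissue.

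Ago1 encodes one of the Argonaute proteins, which hold a mature miRNA and guide it to messenger RNAs. A miRNA is cut from a hairpin with a 5p arm and a 3p arm. Usually one arm is kept by Argonaute and the other is mostly degraded. Pairing to a target rests mainly on the seed, bases 2 to 8 of the mature miRNA. Argonaute also protects the miRNA it holds from decay, and the mammalian Argonaute proteins are largely able to carry the same miRNAs. In fat tissue, endothelial miRNAs such as miR-126a are found beside those of adipocytes, stroma, blood and nerves.

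The mature sequences of the miRNAs on which the results turn are printed 5′ to 3′ from RefSeq (GRCm38.p6), with the seed in capitals. Of the 38 miRNAs that passed the test, 34 had an entry in the RefSeq table, and miR-129-1-3p, miR-3970, miR-30d-3p and miR-126a-5p are named only. The first set holds those with the largest rises, from the miR-129 hairpins and from miR-215, and miR-192-5p, which has the same seed as miR-215-5p.
miR-215-5p: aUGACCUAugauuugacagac
miR-192-5p: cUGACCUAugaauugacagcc
miR-129-5p: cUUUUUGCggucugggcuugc
miR-129-2-3p: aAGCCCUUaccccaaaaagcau
The second set is the miR-30 family, in which miR-30a-3p and miR-30e-3p share a seed that differs from that of miR-30e-5p.
miR-30e-5p: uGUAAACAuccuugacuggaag
miR-30a-3p: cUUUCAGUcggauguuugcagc
miR-30e-3p: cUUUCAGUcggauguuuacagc
miR-30c-2-3p: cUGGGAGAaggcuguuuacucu
The third set pairs risers with the miRNA they resemble most, because reads of near-identical miRNAs may have been divided between them.
let-7k: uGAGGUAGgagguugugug
let-7e-5p: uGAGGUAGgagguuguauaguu
miR-3962: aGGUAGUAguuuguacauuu
let-7g-5p: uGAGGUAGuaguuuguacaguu
miR-374c-5p: aUAAUACAaccugcuaagug
miR-374b-5p: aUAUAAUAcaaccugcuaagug
miR-1843a-5p: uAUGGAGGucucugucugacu
miR-1843b-5p: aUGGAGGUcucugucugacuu
miR-3964: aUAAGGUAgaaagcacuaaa
miR-142a-5p: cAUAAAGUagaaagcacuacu
The fourth set holds some of the lower miRNAs, among them miR-221-3p and the largest fall, miR-342-5p, with tested miRNAs of the same seed printed below them where the seed is shared.
miR-221-3p: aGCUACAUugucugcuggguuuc
miR-222-3p: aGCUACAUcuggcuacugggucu
miR-351-5p: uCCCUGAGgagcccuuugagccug
miR-125b-5p: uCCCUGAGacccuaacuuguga
miR-132-3p: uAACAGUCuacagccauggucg
miR-212-3p: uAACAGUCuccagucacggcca
miR-503-5p: uAGCAGCGggaacaguacugcag
miR-450a-5p: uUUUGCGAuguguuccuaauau
miR-18a-5p: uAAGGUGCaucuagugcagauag
miR-342-5p: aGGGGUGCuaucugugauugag

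The longest run of bases shared by let-7k and let-7e-5p was 16. For miR-3962 and let-7g-5p it was 17 bases, although miR-3962 begins within let-7g-5p, so that their seeds differ. All 20 bases of miR-374c-5p lie inside miR-374b-5p. The miR-1843a-5p and miR-1843b-5p sequences share 20 of 21 bases, with starts 1 base apart. A run of 13 bases is common to miR-3964 and miR-142a-5p. The 3p arms of miR-30a and miR-30e share a run of 17 bases. The values of these pairs are uncertain where the authors' counting, which is not given in the sources used here, could divide reads between them.

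Values are on a log2 scale and quantile-normalized, which gives each library the same set of ranked values, and reads per library are unknown. How many miRNAs lay at the lowest value, a trace of depth called the bottom count here, was 70, 104 and 63 in WT and from 101 to 152 in the knockouts. Its mean was 40.5 higher in the knockouts, which an exact permutation test did not separate from the spread between mice (two-sided p = 0.0714, smallest possible 0.0238). Of the markers of other cell types, the 5 of epithelium averaged from 4.61 to 5.08 in WT and from 5.30 to 8.43 in the knockouts, with Hete KO replicate 1 at 8.43 and none of the 5 at a library's lowest value. The 4 markers of skeletal muscle averaged from 7.56 to 13.7 in WT and from 6.17 to 14.3 in the knockouts. The 2 of endothelium, the arms of miR-126a, averaged from 16.31 to 16.66 in WT and from 15.68 to 16.19 in the knockouts. WT replicate 1 stood apart in miR-122-5p, the liver miRNA, at 7.48 against 14.84 and 14.99 in the other WT libraries. Marker levels of stroma, mural cells, leukocytes, erythroid cells, nerve, skin and liver overlapped between the groups.

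**Figure D1:**
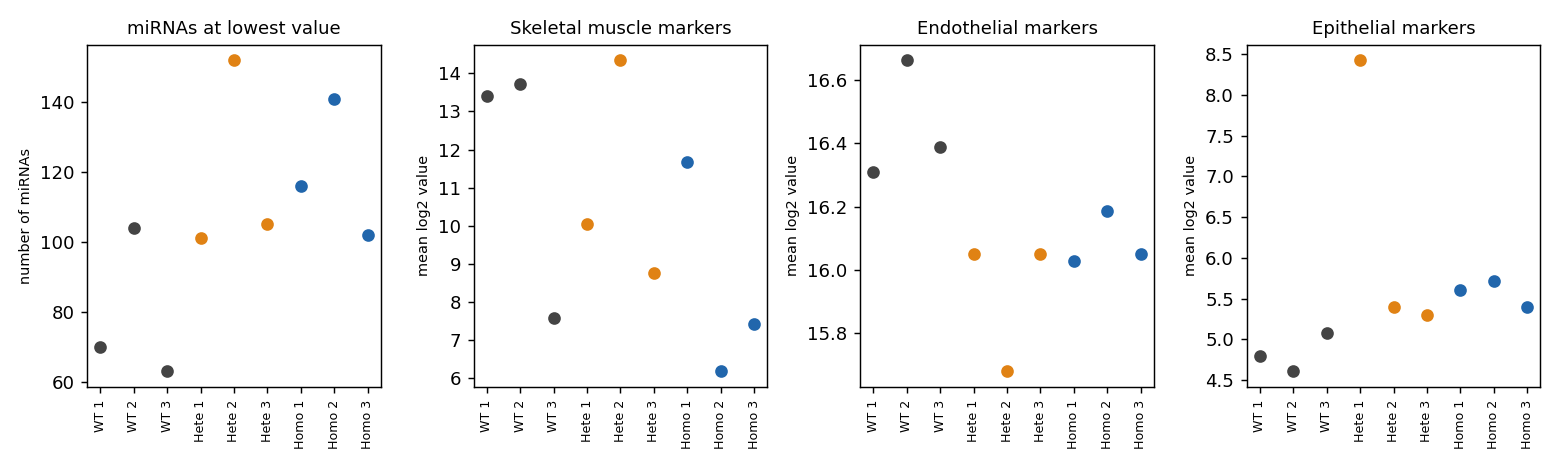
Bottom count (miRNAs at the lowest value) and mean log2 level of 3 marker sets (y axes, none starting at 0) in each library (x axes), 1 point per mouse, in black for WT, orange for Hete KO and blue for Homo KO. The knockout libraries lie below WT for the endothelial markers and above WT for the epithelial markers, and the groups overlap in the other panels.

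Of 860 mature miRNAs, 489 were high enough to test. Of these, 38 differed between knockouts and WT (7.77%) in limma's moderated test at a Benjamini-Hochberg adjusted p under 0.05, with 21 higher (4.29%) and 17 lower (3.48%) in the knockouts. The higher ones included all 3 tested miR-129 products, miR-215-5p and 5 of 11 miR-30 family members. Among the lower ones were miRNAs of X-linked growth-associated clusters, 5 miRNAs of the imprinted Dlk1-Dio3 region and the 5p arm of endothelial miR-126a. Over all tested miRNAs the median change was 0.01 on the log2 scale, with 251 above 0 and 238 below. The called miRNAs had a median change of 0.90 where higher and of -0.76 where lower, and all 38 lay above the lowest value in each of the 9 libraries. Called miRNAs lay at mean levels from 3.47 to 17.7.

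Without WT replicate 1, only miR-215-5p of the 38 was called (1 call in all, 73 at an unadjusted p under 0.05), and without Hete KO replicate 3, Homo KO replicate 1, 2 or 3 there were 14, 20, 18 and 14 calls. With the bottom count as a covariate, limma called none (81 at an unadjusted p under 0.05, 33 of the 38 among them), although all 38 kept their direction at a median of 0.93 times their size. Among the libraries with bottom counts between 101 and 105, WT replicate 2 and 3 knockouts, the changes of the 38 had a median of 0.93 times their full size, ranging from 0.39 to 1.45 times. This last comparison was chosen after seeing the data and has no replicate check. The 38 were chosen on these same libraries, so their kept directions and sizes follow in part from that choice. They cannot tell depth from genotype.

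**Figure D2:**
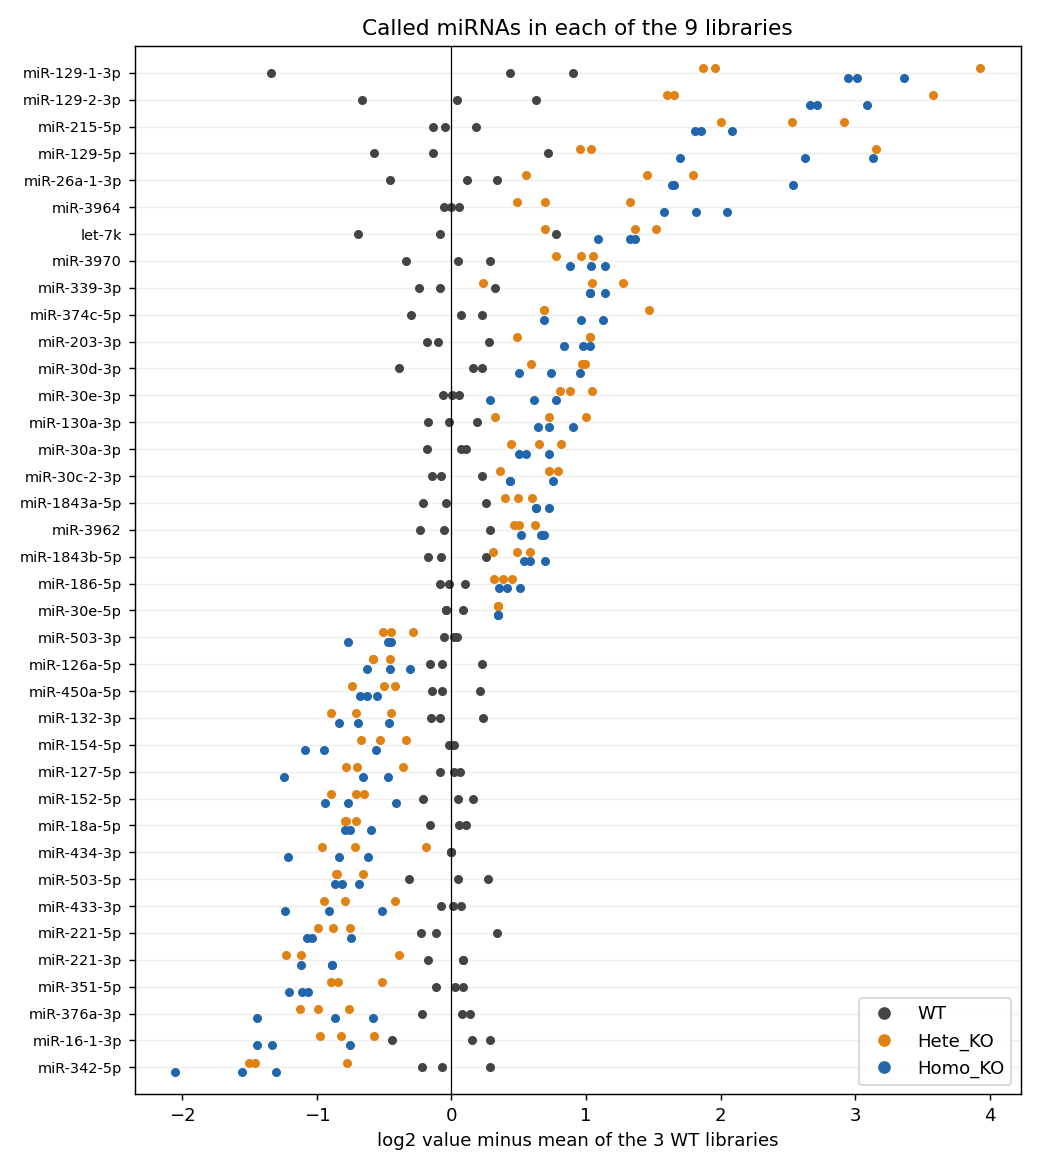
Log2 value of each called miRNA minus the mean of the 3 WT libraries (x axis), 1 row per miRNA and 1 point per mouse, in black for WT, orange for Hete KO and blue for Homo KO. Orange and blue points lie on the same side of the black ones in 36 of 38 rows, and reach into the WT range for let-7k and miR-339-3p. The rows were chosen on these same libraries.

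No overlap between the 6 knockout and the 3 WT libraries was seen for 61 of the 489 miRNAs (12.5%). Of the 38 called, 36 were free of overlap, 19 above and 17 below WT. The 38 were chosen on these same libraries, so this count is no support for them. Over all tested miRNAs, 31 lay wholly above WT (6.34%) and 30 wholly below (6.13%). The exceptions were let-7k and miR-339-3p. WT values of let-7k were 8.89, 9.50 and 10.36, and the lowest knockout library, Hete KO replicate 1, lay at 10.28. For miR-339-3p the lowest knockout value, also from Hete KO replicate 1, was 6.43 and the highest WT value 6.52.

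The 3p arms of miR-129 had the largest rises, followed by miR-215-5p and the shared 5p arm. The miR-129 products are miRNAs of nerve tissue that have also been reported in brown adipocytes. They come from 2 hairpins, Mir129-1 at chr6:29022619-29022691 (plus strand, in an exon of Gm3294, a long noncoding RNA) and Mir129-2 at chr2:94241364-94241453 (minus strand, in an intron of Mir670hg), which share the 5p sequence. Log2 values of miR-129-1-3p were 1.06, 3.31 and 2.84 in WT, against 4.27, 6.33 and 4.36 in Hete KO and 5.35, 5.77 and 5.42 in Homo KO. Every knockout library lay above every WT library, and WT replicate 1 was well below the other WT libraries. The difference was 2.85 ± 0.57 (SE, adjusted p = 0.0200, limma), or 7.19-fold on this scale.

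The 3p arm of the other hairpin, miR-129-2-3p, read 2.25, 3.54 and 2.95 in WT, 4.57, 6.50 and 4.52 in Hete KO and 5.58, 6.01 and 5.63 in Homo KO. As for miR-129-1-3p, Hete KO replicate 2 was highest and WT replicate 1 lowest, and the change was 2.55 ± 0.47 (SE, adjusted p = 0.0136, limma). The shared 5p arm, miR-129-5p, had WT values of 4.16, 5.46 and 4.61 and knockout values from 5.70 to 7.90 around a median of 6.91. Its change of 2.10 ± 0.55 (SE) had an adjusted p of 0.0442 in limma and was called in 2 of the 9 fits that each left out 1 library, while the 3p arms were called in 8 of 9. The highest miR-129-5p values, 7.90 and 7.87, came from Hete KO replicate 2 and Homo KO replicate 2, which also had the highest bottom counts (152 and 141). With that count as a covariate, the changes were 1.62, 1.42 and 0.77 in the order given, none of them called. Markers of nerve, averaging from 6.54 to 7.56 in WT and from 7.05 to 8.08 in the knockouts, overlapped between the groups. Their part in the miR-129 result was not tested.

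miR-215-5p was the call that held in each of the 9 fits leaving out 1 library, with adjusted p from 0.0036 to 0.0389 in limma. It is a p53-responsive miRNA of the gut and liver, encoded at chr1:185313581-185313692 (plus strand) in an exon of the antisense transcript 2010103J01Rik. WT libraries read 3.20, 3.11 and 3.44, Hete KO libraries 5.78, 6.17 and 5.26, and Homo KO libraries 5.10, 5.06 and 5.34. All 6 knockouts were thus at least 1.62 above the highest WT value. The change was 2.20 ± 0.28 (SE, 95% interval 1.59 to 2.81, adjusted p = 0.0048, limma), or 4.60-fold. Beside Hete KO 2.49 above WT, Homo KO was 1.92 above it.
Its seed partner miR-192-5p read 9.10, 11.66 and 11.51 in WT and from 9.80 to 11.47 in the knockouts, with no call (change -0.21 ± 0.53 SE, adjusted p = 0.857, limma). The spread of miR-192-5p in WT came mainly from replicate 1, the library also low in miR-122-5p. Of the 3 tested members of the miR-192, miR-194 and miR-215 clusters, 1 was called higher and the other two lay below 0, with a list median of -0.21.

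The miR-30 family is abundant in adipocytes and has been reported to favour their differentiation. All 11 tested members had changes above 0, and 5 were called higher, with a median change of 0.39 against 0.01 over all tested miRNAs. Over all 489, 4.29% were called higher and 251 changes were above 0. Of the 5 calls, 4 were 3p arms, which are rare beside their 5p partners. miR-30a-3p read 12.44, 12.73 and 12.69 in WT and 13.06 to 13.43 (median 13.22) in the knockouts, a change of 0.62 ± 0.12 (SE, adjusted p = 0.0137, limma). The groups were separated by 0.33 at their nearest libraries. miR-30e-3p went from 11.85, 11.98 and 11.92 in WT to between 12.21 and 12.96 (median 12.71), a change of 0.73 ± 0.15 (SE, adjusted p = 0.0204, limma). WT libraries of this arm differed little, with an SD of 0.06 (n = 3 mice). miR-30d-3p changed by 0.79 ± 0.18 (SE, adjusted p = 0.0270) and miR-30c-2-3p by 0.59 ± 0.15 (SE, adjusted p = 0.0355).

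Among the 5p arms, miR-30e-5p was the call, and the most abundant called miRNA. Its hairpin lies at chr4:120772606-120772697 (minus strand) in an intron of Nfyc. It ranked 12, 11 and 12 among all miRNAs in WT and 10 in each of the 6 knockout libraries, and its log2 value went from 17.45, 17.58 and 17.45 to 17.83 in every knockout. At this abundance values are steps between ranks, and the equal rank gave all 6 knockouts the same value. Their spread of 0 therefore does not measure how reads varied between mice. The change of 0.34 ± 0.07 (SE, adjusted p = 0.0204, limma) is a move of 1 or 2 ranks. It held from 2.67% to 2.93% of the summed back-transformed abundance in WT and 3.49% in the knockouts. miR-30a-5p, at 18.22, 18.22 and 18.09 in WT and from 18.34 to 18.47 in the knockouts, did not overlap between the groups but was not called (0.23 ± 0.08 SE, adjusted p = 0.118). Nor was miR-30d-5p, whose change was 0.02 ± 0.07 (SE, adjusted p = 0.924), nor miR-30c-5p, at 0.33 ± 0.14 (SE, adjusted p = 0.181). The list stayed above 0 in 11 of 11 members under each scaling tried, and in 9 of 11 with the bottom count as a covariate, where its median was 0.45.

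miR-26 miRNAs, which stand within the Ctdsp phosphatase genes and rise as adipocytes mature, had 1 call among 5 tested members and a list median of 0.37. It was the rare arm miR-26a-1-3p, from Mir26a-1 at chr9:119031796-119031885 (plus strand, in an intron of Ctdspl). Its WT values were 2.52, 2.74 and 1.94 and its knockout values 2.95 to 4.94 (median 4.05), with Hete KO replicate 1 nearest WT. The change of 1.61 ± 0.41 (SE, adjusted p = 0.0420, limma) was called in 1 of the 9 fits leaving out a library. The abundant 5p miRNAs miR-26a-5p and miR-26b-5p lay just outside the threshold, with changes of 0.32 ± 0.10 and 0.37 ± 0.12 (SE, adjusted p = 0.106 and 0.107). miR-98-5p of the let-7 seed family was the third of the higher miRNAs just outside, at 0.44 ± 0.14 (SE, adjusted p = 0.102).

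Other higher miRNAs fell into no list of several calls. miR-203-3p, which promotes the differentiation of skin keratinocytes, read 11.71, 11.79 and 12.16 in WT and from 12.38 to 12.92 (median 12.89) in the knockouts, 0.90 ± 0.15 higher (SE, adjusted p = 0.0123, limma). Knockout libraries were closely grouped apart from Hete KO replicate 1, which was the lowest of them in miR-203-3p and the highest in the epithelial markers. The skin markers miR-203-3p and miR-205-5p averaged from 8.15 to 8.41 in WT and from 7.42 to 10.3 in the knockouts, so the pair overlapped between groups, and the part of skin or gland in the miR-203-3p result was not tested. miR-130a-3p, reported to repress the adipocyte regulator PPARG, was 0.72 ± 0.16 higher (SE, adjusted p = 0.0238). It went from 9.90, 9.74 and 10.10 to between 10.24 and 10.92. It was the one call among 7 tested miR-130 and miR-301 miRNAs, whose list median was -0.02.

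miR-3970 and miR-3964, little-studied miRNAs, also rose. WT values of miR-3970 were 6.91, 7.30 and 7.53, and knockout values 8.02 to 8.39, a change of 0.98 ± 0.15 (SE, adjusted p = 0.0123, limma), called in 8 of 9 fits leaving out a library. miR-3964, encoded at chr15:29713331-29713404 (minus strand), was tight in WT at 6.02, 6.14 and 6.08. It read 6.77, 6.57 and 7.41 in Hete KO and 7.66, 8.13 and 7.90 in Homo KO, so that the genotypes did not overlap either. miR-142a-5p, which holds 13 of its 20 bases, was likewise highest in Homo KO and lowest among the knockouts in Hete KO replicate 2. Against WT the pooled change was 1.33 ± 0.32 (SE, adjusted p = 0.0350).

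The remaining higher miRNAs were miR-339-3p, miR-186-5p and those that resemble another miRNA. let-7k was 1.23 ± 0.29 higher (SE, adjusted p = 0.0292, limma), while let-7e-5p, which holds most of its bases, was 0.41 ± 0.15 higher (SE, adjusted p = 0.143). The let-7 and miR-98 list, which does not hold let-7k, had 0 of 20 tested members called in limma, 3 at an unadjusted p under 0.05, 15 above 0 and a median of 0.12. miR-3962 rose by 0.58 ± 0.13 (SE, adjusted p = 0.0281) beside 0.28 ± 0.09 (SE, adjusted p = 0.114) for let-7g-5p. miR-374c-5p rose by 0.94 ± 0.24 (SE, adjusted p = 0.0419) beside 0.32 ± 0.24 (SE, adjusted p = 0.489) for miR-374b-5p. In each of these 3 pairs the shorter, rarer sequence had the larger estimate, and the difference within a pair was not tested. miR-1843a-5p and miR-1843b-5p, from introns of Dcaf5 on chromosome 12 and Cop1 on chromosome 1, rose by 0.58 ± 0.13 and 0.53 ± 0.13 (SE, adjusted p = 0.0270 and 0.0350). miR-186-5p rose by 0.41 ± 0.10 (SE, adjusted p = 0.0346) and miR-339-3p by 0.96 ± 0.23 (SE, adjusted p = 0.0345).

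Lower miRNAs included both arms of miR-221. miR-221 and its neighbour miR-222 are abundant in endothelium and in dividing cells, where they repress the cell-cycle inhibitor p27. Mir221 lies at chrX:19146294-19146388 and Mir222 at chrX:19146893-19146971, both on the minus strand. All 4 tested arms had changes below 0, and both arms of miR-221 were called lower, against 3.48% of all tested miRNAs. miR-221-3p read 13.06, 13.06 and 12.80 in WT, 12.58, 11.74 and 11.85 in Hete KO and 12.09, 11.85 and 12.09 in Homo KO. Each knockout was below each WT library, with Hete KO replicate 1 nearest WT, and the change was -0.94 ± 0.17 (SE, adjusted p = 0.0137, limma), or 1.92-fold lower. miR-221-5p, the rare arm, went from 8.15, 7.70 and 7.59 to between 6.73 and 7.07, a change of -0.91 ± 0.16 (SE, adjusted p = 0.0123). miR-222-3p, of the same seed as miR-221-3p, lay just outside the threshold at -0.80 ± 0.24 (SE, adjusted p = 0.0770), and its Hete KO replicate 1 value of 11.51 fell within WT. The list median was -0.86 and all 4 were below 0 under each scaling, 3 of 4 with the bottom count as a covariate. In a whole tissue, fewer cells of a type and less of a miRNA per cell cannot be told apart.

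A second X-linked group, from miR-322 to miR-542 and expressed in dividing and differentiating cells, had 4 of 11 tested members called lower, 10 of 11 changes below 0 and a median of -0.46. Over all 489 tested miRNAs, 3.48% were called lower, 238 changes were below 0 and the median was 0.01. The 11 come from neighbouring hairpins, in several cases as both arms of a hairpin, so they are not independent observations. miR-351-5p, a rodent miRNA with the seed of miR-125, was 9.83, 9.62 and 9.77 in WT and 8.53 to 9.23 (median 8.76) in the knockouts. Every knockout was below WT, and the change was -0.94 ± 0.16 (SE, adjusted p = 0.0123, limma). Its abundant seed partner miR-125b-5p had no call, at 0.22 ± 0.19 (SE, adjusted p = 0.532). Both arms of Mir503 (chrX:53053984-53054054, minus strand) were lower. miR-503-5p, which represses cyclins, fell from 9.37, 9.60 and 9.01 to between 8.46 and 8.67, a change of -0.79 ± 0.14 (SE, adjusted p = 0.0136). Knockout libraries of miR-503-5p were closely grouped, with an SD of 0.09 (n = 6 mice). miR-503-3p changed by -0.49 ± 0.13 (SE, adjusted p = 0.0494). miR-450a-5p, made from neighbouring hairpins at chrX:53048154-53048244 and chrX:53048299-53048367, was 10.03, 9.67 and 9.74 in WT and 9.08 to 9.40 in the knockouts, a change of -0.59 ± 0.12 (SE, adjusted p = 0.0219).
The most abundant miRNA of the cluster, miR-322-5p, was just outside the threshold at -0.46 ± 0.14 (SE, adjusted p = 0.0799), with WT at 12.32, 12.21 and 12.32 and all knockouts from 11.55 to 12.09. miR-542-3p and miR-450b-5p were at -0.47 ± 0.17 and -0.42 ± 0.18 (SE, adjusted p = 0.133 and 0.204).

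In the cluster of Mir17hg and its paralogues, 1 of 18 tested members, miR-18a-5p, was called lower, and the list median was -0.18. miR-18a-5p, which comes from chr14:115043851-115043946 (plus strand) in an exon of Mir17hg, had WT values of 7.77, 7.72 and 7.50 and knockout values from 6.87 to 7.07. The change was -0.74 ± 0.12 (SE, adjusted p = 0.0123, limma), called in 8 of 9 fits leaving out a library. From the same transcript miR-20a-5p was at -0.47 ± 0.14 (SE, adjusted p = 0.0804), without overlap between the groups, and miR-17-5p at -0.19 ± 0.14 (SE, adjusted p = 0.470). miR-16-1-3p, the rare arm of a hairpin in Dleu2, had a change of -0.98 ± 0.26 (SE, adjusted p = 0.0481), at 5.79, 5.65 and 5.05 in WT and 4.05 to 4.92 in the knockouts. It was the one call among 11 tested members of the miR-15, miR-16 and miR-195 family.

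miR-126a is the defining miRNA of endothelial cells, where it stands in an intron of Egfl7 and supports vessel integrity. Its rarer arm miR-126a-5p read 15.04, 15.34 and 14.95 in WT, 14.52, 14.52 and 14.65 in Hete KO and 14.48, 14.80 and 14.65 in Homo KO, all 6 below WT. The change was -0.50 ± 0.11 (SE, adjusted p = 0.0270, limma), or 1.42-fold lower, and its rank went from 28, 24 and 30 to between 33 and 39. The more abundant miR-126a-3p was 17.58, 17.99 and 17.83 in WT and 16.84 to 17.58 (median 17.51) in the knockouts, at -0.39 ± 0.17 (SE, adjusted p = 0.204), with WT replicate 1 equal to 3 knockout libraries. Both arms of miR-126a thus had estimates below 0, and 1 of 2 passed the test.

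miR-132-3p, induced by growth factors and active in vessel growth, was 9.40, 9.01 and 9.08 in WT and 8.26 to 8.71 (median 8.46) in the knockouts. The change was -0.68 ± 0.15 (SE, adjusted p = 0.0238, limma), called in 5 of 9 fits leaving out a library. Its seed partner miR-212-3p, from the same transcript, was at -0.23 ± 0.29 (SE, adjusted p = 0.683), and the list of 4 tested arms had a median of -0.26. miR-342-5p, from an intron of Evl (chr12:108658620-108658718, plus strand) and reported in leukocytes and adipocytes, had the largest fall among the calls. It went from 6.53, 6.17 and 6.02 in WT to between 4.18 and 5.46 (median 4.75), a change of -1.44 ± 0.26 (SE, adjusted p = 0.0136), or 2.72-fold lower. Its abundant partner arm miR-342-3p was at -0.81 ± 0.26 (SE, adjusted p = 0.110). The other leukocyte miRNAs were not called, with 6 of the 10 tested above 0 and a list median of 0.06. miR-152-5p, from an intron of Copz2, had a change of -0.73 ± 0.17 (SE, adjusted p = 0.0270).

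The Dlk1-Dio3 region on chromosome 12 is imprinted, and its many miRNAs are made from the maternal allele. Of its miRNAs 53 were tested, 52 had changes below 0 and 5 were called lower, with a median of -0.38 against 0.01 over all tested miRNAs. Over all 489, 3.48% were called lower and 238 changes were below 0. Many of the 53 are arms of the same or neighbouring hairpins and are not independent observations. The calls miR-433-3p, miR-127-5p and miR-434-3p come from hairpins between chr12:109591715 and chr12:109594599 (plus strand), antisense to the growth gene Rtl1. miR-433-3p was 6.38, 6.29 and 6.44 in WT and 5.14 to 5.95 (median 5.52) in the knockouts, a change of -0.80 ± 0.20 (SE, adjusted p = 0.0350, limma). miR-434-3p was 10.34 in each of the 3 WT libraries and from 9.12 to 10.15 in the knockouts, a change of -0.76 ± 0.19 (SE, adjusted p = 0.0419). In all 3 WT libraries miR-434-3p ranked 121, and equal ranks give equal values under this normalization. Its ranks in the knockouts ran from 127 to 162.5. miR-127-5p changed by -0.70 ± 0.18 (SE, adjusted p = 0.0451), and its abundant partner miR-127-3p, which did not pass the test, had an estimate of -0.70 ± 0.23 (SE, adjusted p = 0.107).

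Farther along the region, miR-376a-3p was 7.09, 7.03 and 6.73 in WT and 5.51 to 6.37 in the knockouts, at -0.96 ± 0.20 (SE, adjusted p = 0.0204, limma), and miR-154-5p changed by -0.69 ± 0.18 (SE, adjusted p = 0.0469). miR-376a-3p was called in 6 of 9 fits leaving out a library, miR-433-3p in 2, and the other three of the 5 calls in 1. miR-329-3p had a larger estimate than 4 of the calls, -0.86 ± 0.29, but a knockout spread of 0.54 (SD, n = 6 mice) and an adjusted p of 0.118. Under the other scalings 52 of 53 stayed below 0. With the bottom count as a covariate, 40 of 53 were below 0 and the median was -0.18, and with the mean of 4 muscle miRNAs as a covariate 47 of 53 were, at a median of -0.31. Without the 3 libraries highest in muscle miRNAs 46 of 53 were below 0. By chromosome, 2 of 64 miRNAs tested on chromosome 12 were called higher and 6 lower, 1 of 44 on the X chromosome higher and 5 lower, and 5 of 37 on chromosome 1 higher. Chromosomes 2 (3 of 20), 4 (2 of 16) and 5 (2 of 17) also had higher calls. Chromosomes 11 (2 of 47) and 14 (2 of 12) had lower ones. Over all tested miRNAs, 4.29% were called higher and 3.48% lower. miRNAs whose hairpin had no position are missing from the counts by chromosome.

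**Figure D3:**
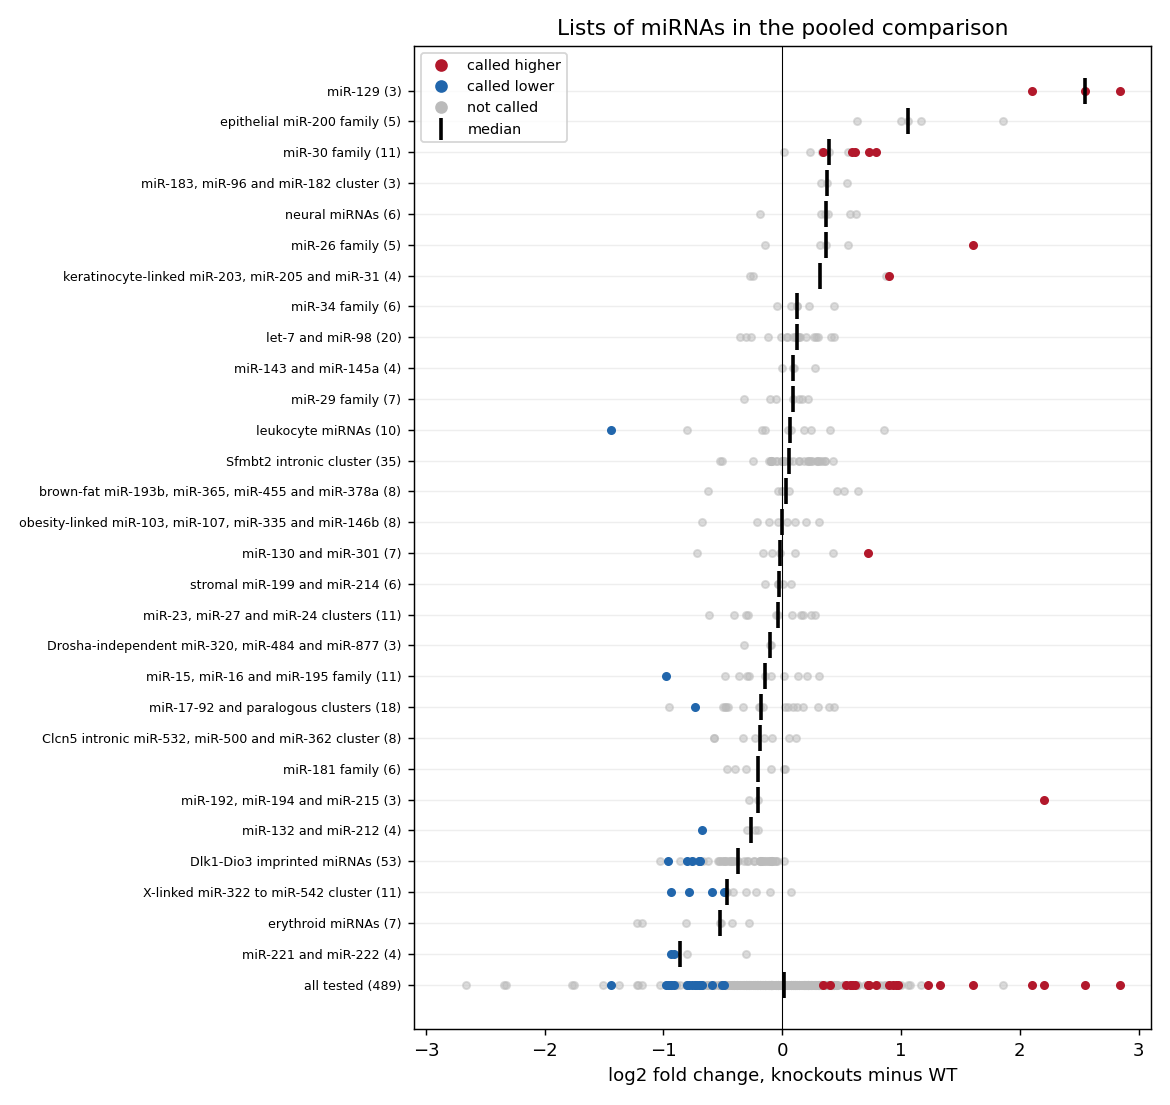
Log2 fold change (x axis, knockouts minus WT) of each tested member of the lists with at least 3 tested members, skeletal muscle aside (1 row per list, number tested in parentheses), with called miRNAs in red or blue, others in grey and the list's median as a bar. The miR-129 and miR-30 rows lie above 0 throughout, all but 1 of 53 Dlk1-Dio3 miRNAs lie below 0, and most lists have medians near that of all 489 miRNAs. Several other short rows also lie on 1 side of 0, among them the erythroid (7 below) and miR-200 (5 above) rows, which have no call.

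The 19 lists without a call were let-7 and those of smooth muscle, stroma, the miR-29 and miR-181 families, the miR-23, miR-27 and miR-24 clusters, brown-fat and obesity-linked miRNAs, miR-34, miR-210, miR-183, nerve, liver, erythroid cells, skeletal muscle, the epithelial miR-200 family, Clcn5, Sfmbt2 and Drosha-independent miRNAs. Median changes among these with at least 3 tested members lay between -0.53 (erythroid) and 1.06 (miR-200), skeletal muscle aside at -1.77. Together they hold 153 tested miRNAs, of which 0 were called by definition, since the lists were grouped for having no call. In limma 14 of the 153 had an unadjusted p under 0.05, against 109 of all 489 (22.3%). That lower share follows in part from the same grouping.

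Each genotype was also set against WT on its own in a fit with 3 group means. The 3 WT libraries are shared, so the values of Hete KO and Homo KO stand side by side and are not independent. Hete KO alone gave 2 calls (0.409%) and Homo KO alone 16 (3.27%), 8 of them higher (1.64%) and 8 lower (1.64%). The calls in Hete KO were miR-215-5p and miR-30e-3p, both higher (adjusted p = 0.0034 and 0.032, limma). All 38 pooled calls had an unadjusted p under 0.05 in each genotype, against 15.7% of all tested miRNAs in Hete KO and 23.9% in Homo KO. Since the 38 were chosen on these same libraries, that count is no support for them. Of the 38, 14 were called in Homo KO alone, and 23 were called in neither genotype by itself. For example, miR-503-5p was 0.79 lower in Hete KO and 0.79 lower in Homo KO, with adjusted p of 0.060 and 0.040. miR-132-3p was 0.68 lower in Hete KO and 0.67 lower in Homo KO, with adjusted p of 0.088 and 0.060.

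The difference between Homo KO and Hete KO was tested directly, and 0 of 489 miRNAs were called in limma (41 at an unadjusted p under 0.05, 8.38%). Estimates were farther from WT in Homo KO for 26 of the 38, which were chosen on these same libraries. The share over all 489 was not counted. Of all 489, 23.9% had an unadjusted p under 0.05 in Homo KO against WT and 15.7% in Hete KO (limma). In 32 of the 38, the 95% interval of the genotype difference lay within the size of the pooled change on either side of 0. The pooled fit that chose the 38 counts any genotype difference as spread. The count of 32 thus follows in part from that choice and is no support for agreement between the genotypes. The median half-width of the interval was 0.42, so that smaller differences between the genotypes were not detectable here. An unadjusted p under 0.05 was found for 3 of the 38. miR-3964 was 0.98 higher in Homo KO than in Hete KO (95% interval 0.47 to 1.49, adjusted p = 0.509, limma), 0.84 above WT in Hete KO and 1.82 in Homo KO. miR-351-5p was 0.38 lower in Homo KO (interval -0.70 to -0.05, adjusted p = 0.593). miR-30e-3p was 0.35 lower in Homo KO, and so nearer to WT there (interval -0.68 to -0.02, adjusted p = 0.593).

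miR-139-3p and miR-142a-5p were called in Homo KO against WT and not in the pooled comparison. miR-139-3p, from an intron of Pde2a, was 7.30, 7.09 and 7.09 in WT, 6.79, 6.40 and 6.78 in Hete KO and 6.41, 5.87 and 6.30 in Homo KO, with a pooled change of -0.73 ± 0.21 (SE, adjusted p = 0.0608, limma). The groups did not overlap, and it was the lower miRNA nearest to the threshold. miR-142a-5p, a miRNA of blood cells, was 10.58, 10.56 and 10.58 in WT and 11.85, 12.02 and 11.63 in Homo KO, but Hete KO replicate 2 lay below WT at 10.39.

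Both arms were tested for 165 hairpins, 24 of which had a called arm, and in 21 of the 24 both arms had estimates of the same sign. The 24 were chosen for a called arm on these same libraries, and the share of same signs over all 165 was not counted. Of the calls, 14 were the more abundant arm of such a pair and 14 the less abundant one. In 4 pairs, miR-129-5p with miR-129-2-3p, miR-30e, miR-221 and miR-503, both arms were called. The arms had opposite signs for miR-186, miR-152 and miR-16-1. For miR-152, miR-152-3p was at 0.21 ± 0.15 (SE) and miR-152-5p at -0.73 ± 0.17. For miR-16-1, miR-16-5p, which a second hairpin also makes, was at 0.13 ± 0.14 and miR-16-1-3p at -0.98 ± 0.26.

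**Figure D4:**
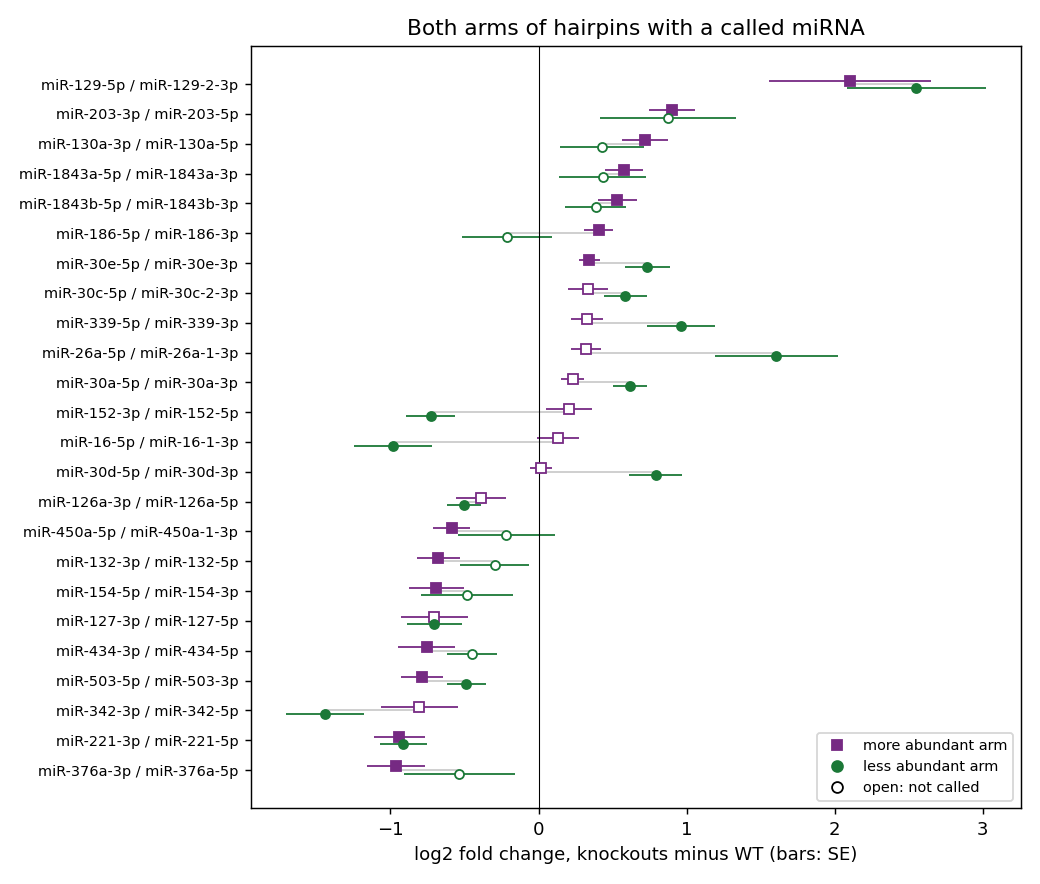
Log2 fold change (x axis, knockouts minus WT, bars SE) of both arms of each hairpin with a called miRNA, purple squares for the more abundant arm and green circles for the less abundant one, filled where called. Both symbols lie on the same side of 0 in 21 of 24 rows, and open purple squares beside filled green circles mark the miR-30a, miR-30d, miR-26a, miR-339 and miR-342 hairpins among others. The rows were chosen for a called arm on these same libraries.

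The change in the difference between arms was itself tested, and 1 of 165 hairpins was called (0.606%). This was miR-142a, whose 3p arm exceeded its 5p arm by 1.63, 1.75 and 1.27 in WT and by 0.36 to 0.73 (median 0.55) in the knockouts. All 6 knockout libraries were below WT, in Hete KO as in Homo KO. The arm difference changed by -1.003 ± 0.17 (SE, adjusted p = 0.0117, limma), while neither arm was called by itself. The miR-142a call was lost with the bottom count as a covariate (-1.02 ± 0.26 SE, adjusted p = 0.0938, limma) and without WT replicate 1 or 2 (-0.97 and -0.90, adjusted p = 0.107 and 0.101), with the direction kept. With that covariate the arm difference of miR-744 was called in its place (-1.30 ± 0.23 SE, adjusted p = 0.0173). miR-142a-3p was at -0.14 ± 0.30 (SE, adjusted p = 0.805) and miR-142a-5p at 0.86 ± 0.30 (SE, adjusted p = 0.122). The next hairpins, miR-152 at 0.94 ± 0.21, miR-16-1 at 1.11 ± 0.29 and miR-30d at -0.78 ± 0.20 (SE, adjusted p = 0.0702, 0.0918 and 0.0918), did not pass the test.

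In sequence, 4 of 18 higher and 8 of 16 lower calls with an entry began with U, against 40.0% of the 405 tested miRNAs with one. Median length was 22 bases in each set. Seeds could be compared only among the 405 tested miRNAs with an entry, and few calls shared one. Among these, only miR-30a-3p and miR-30e-3p had their seed, and both rose. miR-30d-3p, also called higher, had no entry and was not compared. Of the 10 tested miRNAs with the let-7 seed, 8 were above 0 and 1, let-7k, was called. In both miRNAs with the seed of miR-221-3p the change was below 0, whereas the seed of miR-351-5p was shared by miRNAs with changes above 0.

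In summed back-transformed abundance, the 38 miRNAs made up from 3.67% to 4.07% in WT and from 4.42% to 4.56% in the knockouts. The higher ones went from between 2.95% and 3.24% to between 3.96% and 4.04%, of which miR-30e-5p was most. The lower ones went from between 0.658% and 0.830% to between 0.449% and 0.526%. These shares use the selected miRNAs and describe their size alone.

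**Figure D5:**
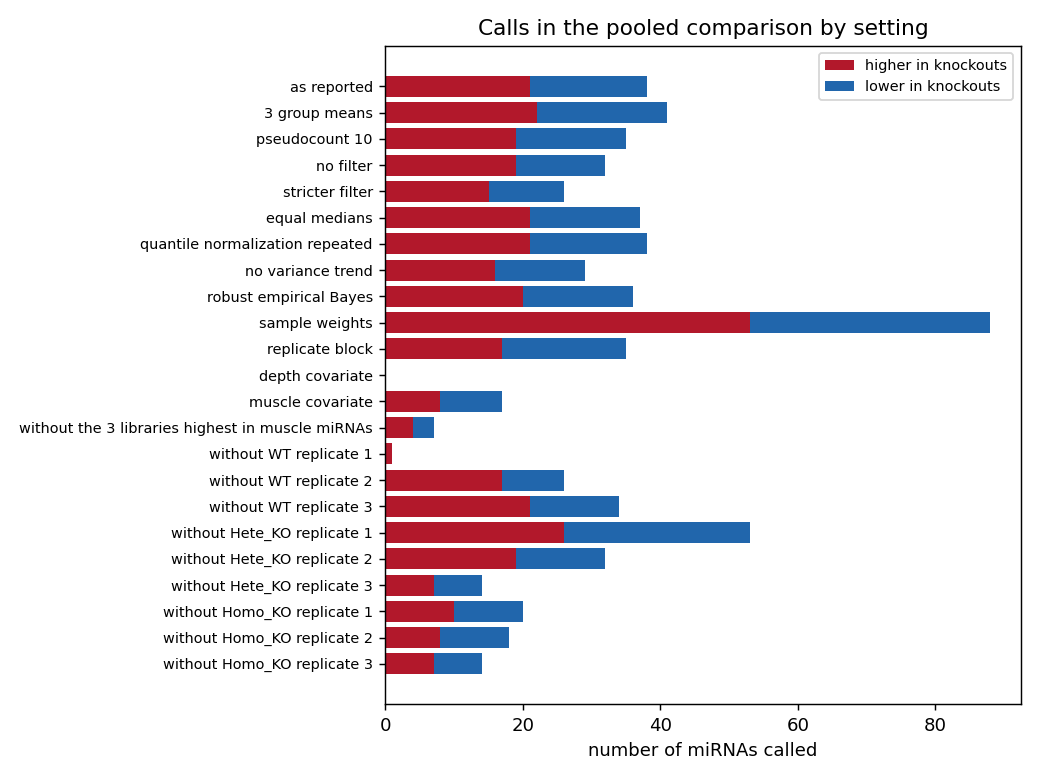
Number of miRNAs called in the pooled comparison (x axis, from 0) under each setting (1 bar per setting), split into those higher (red) and lower (blue) in the knockouts. Counts range from 0 with the bottom count as covariate (depth covariate) and 1 without WT replicate 1 to 88 with sample weights.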

How the data were processed

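Small RNA of 9 mice was measured, 3 for each of the labels WT, Hete KO and Homo KO. Per the labels' protocols, Trizol was used for extraction and Illumina's TruSeq small RNA kit for the libraries. The submitters' processing notes name the build mm10. How reads were aligned, counted and normalized is not given in the sources used here. These deposited files give the authors' log2 value per miRNA. From the values, these were taken as quantile-normalized log2(x + 1), since the ranked values are nearly the same in each library (back-transformed sums 6681250 to 6681288), so that depth is unknown, total miRNA content cannot be compared and a rise of abundant miRNAs pushes others down in rank. Fold changes on this scale understate those of rare miRNAs.

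No pseudocount was added. A miRNA was tested where at least 3 libraries had it above their lowest value and it had a mean of at least 3.46, log2(10 + 1), which kept 489 of 860. With R 4.3.3, limma 3.58.1 (trended eBayes after lmFit, no covariate) compared 6 knockout with 3 WT libraries, and each genotype in a fit with 3 group means. P-values were adjusted by Benjamini-Hochberg over the 489, with 0.05 as threshold, and arm differences over 165 hairpins. Single measures were compared by exact permutation. On simulated data with 200 of 489 miRNAs changed, the pooled comparison recovered 41.8% of log2 changes of 0.5, 79.1% of 1 and 95.5% of 2, and 2.7% of its calls were false. The simulated noise was independent between miRNAs, with no group difference in bottom count. Far more miRNAs were changed than were called in the data. These rates therefore need not hold for the real libraries.

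The comparison, the miRNAs named and the 33 lists were chosen with earlier results of these data known. Named were at most 15 higher and 15 lower calls with the largest change, the nearest 3 outside the threshold on each side, other arms of called hairpins, the 10 most abundant miRNAs, in each list the 2 most abundant, calls that overlap WT or differ between genotypes at an unadjusted p under 0.05, miRNAs called in 1 genotype alone, and called arm differences. Outside that rule, chosen after their values were seen, are miR-30c-2-3p, miR-1843a-5p, miR-1843b-5p, miR-3962, miR-186-5p, let-7e-5p, let-7g-5p, miR-374b-5p, miR-125b-5p, miR-212-3p, miR-17-5p, miR-20a-5p, miR-450b-5p, miR-542-3p, miR-329-3p, miR-30b-5p, miR-200b-3p and the miR-744 pair. Hairpin positions come from RefSeq and host genes from GENCODE vM21 (both on GRCm38.p6, the assembly mm10 names). RefSeq held sequences of 405 of the 489. Alternatives were another pseudocount, filter, scaling, variance model and sample weights, covariates for miRNAs at the lowest value and for muscle miRNAs, the replicate number as a block, and leaving out libraries. List counts under these, and the libraries with similar numbers at the lowest value, were added after seeing the data. Figures were drawn with matplotlib 3.10.9.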

Additional observations from a re-analysis of the deposited data

Results flagged for a closer look

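Of the 69 named miRNAs checked over the 6 knockout libraries, 9 had 1 library far from the other 5, where chance alone gives about 1 in 20. Hete KO replicate 1 was the lowest knockout in miR-203-3p at 12.38 (others 12.73 to 12.92), in miR-339-3p at 6.43 (others 7.23 to 7.48) and in miR-98-5p at 12.48 (others 12.63 to 12.69). The same library was the highest in epithelial miR-200b-3p at 9.05 (others 5.65 to 6.17). Its values in miR-203-3p were still above WT, and in miR-339-3p and miR-98-5p they fell within the WT range.

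Hete KO replicate 2, the library with most miRNAs at the lowest value and the highest muscle markers, was the lowest in 5 abundant miRNAs. It read 16.84 in miR-126a-3p (others 17.45 to 17.58), 13.57 in miR-30b-5p (others 13.89 to 13.99) and 10.92 in miR-142a-3p (others 11.98 to 12.44). In miR-152-3p it read 13.01 (others 13.52 to 13.57) and in miR-16-5p 13.84 (others 14.37 to 14.41). The part of muscle miRNAs or depth in these values was not tested.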

How the results depend on the processing

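The 38 pooled calls kept their direction in every fit run, and the count stayed between 26 and 41 with 3 group means, a pseudocount of 10, no filter or a stricter one, equal medians, repeated quantile normalization, no variance trend or robust estimation. It was 88 with sample weights, 17 with the muscle covariate, 7 without the 3 libraries highest in muscle miRNAs (1 WT library left, assumed to vary like the knockouts, and 1 call in common) and 0 with the covariate for the bottom count. Leaving out each library gave 1 to 53 calls, 12 of the 38 being called in at least 8 of the 9 fits and 19 in fewer than 5. Beside its 2 calls, Hete KO against WT had 1 with the groups compared alone, 10 with the stricter filter, 1 with no variance trend, 0 with the covariate for the bottom count and 1 to 24 leaving out a library. Homo KO had 9 with no filter, 25 with the stricter filter, 0 with the covariate and 2 to 25 leaving out a library. The arm comparison had 5 calls with the stricter filter and 0 to 5 leaving out a library. The count without overlap was 35 with the stricter filter and 64 to 104 leaving out a library, which by construction eases that criterion. The difference in bottom counts was 32.5 to 53 leaving out a library.

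Same-numbered libraries of different groups had deviations correlated from -0.28 to 0.55, over 0.1 in 5 of 9 pairs, so the numbers were not taken to pair mice. With the replicate block the pooled comparison had 35 calls, 30 in common, Hete KO 15 and Homo KO 25.

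Uncalled estimates changed sign for miR-30d-5p (-0.012) and miR-142a-3p (0.14) with the covariate for the bottom count, for miR-142a-3p (0.34), let-7e-5p (-0.079) and miR-125b-5p (-0.12) without the 3 libraries highest in muscle miRNAs, and for miR-192-5p with sample weights (0.38). Leaving out a library moved miR-142a-3p from -0.28 to 0.070 (positive without Hete KO replicate 2), miR-125b-5p from -0.058 to 0.42 (negative without WT replicate 2) and miR-192-5p from -1.03 to 0.24 (positive without WT replicate 2 and, at 0.17, WT replicate 3). The cause of these changes was not tested. Depth is unknown, which limits all statements on rare miRNAs.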

Other observations

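Outside the calls, erythroid miRNAs, those of red blood cells, had changes below 0 in 7 of 7 tested members, with a median of -0.53 and 0 called by limma. An unadjusted p under 0.05 was found for 1 of the 7, against 22.3% of all tested miRNAs. The 7 include both arms of miR-144, miR-486a and miR-486b, and miR-486a-5p and miR-486b-5p changed almost alike (-0.53 and -0.52). They are therefore not independent observations. miR-451a, the main one, read 13.84, 13.12 and 13.24 in WT, 11.79, 12.77 and 12.38 in Hete KO and 12.63, 13.12 and 12.87 in Homo KO (change -0.81 ± 0.27 SE, adjusted p = 0.118, limma). Homo KO replicate 2 reached the lowest WT library, and Hete KO replicate 1, the library highest in epithelial markers, was lowest.

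The epithelial miR-200 family had changes above 0 in 5 of 5 tested members and a median of 1.06, with 0 called by limma and 1 at an unadjusted p under 0.05. For 2 of the 5 all knockout libraries lay above WT, against 31 of all 489 tested miRNAs (6.34%). The 5 averaged 8.43 in Hete KO replicate 1 and from 5.30 to 5.71 in the other knockouts. miR-200b-3p read 5.61, 5.12 and 5.53 in WT, 9.05, 6.02 and 5.65 in Hete KO and 5.85, 5.80 and 6.17 in Homo KO (change 1.004 ± 0.65 SE, adjusted p = 0.415). Its nearest libraries were thus close, at 5.61 in WT and 5.65 in Hete KO.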
